A study of Mus musculus with 17 samples.

Results

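Ras-transformed mouse embryonic fibroblasts (MEFs) at opposite ends of the labelled Usp28 dose were compared: cells with a vector for USP28, and cells whose label gives the Usp28 genotype as -/-. Each group had 2 RNA-seq libraries, so the comparison rests on 4 of the 17 libraries of the series. All 4 came from E13.5 C57bl/6 embryos, were immortalized with pRetroSuper-shp19ARF (a retroviral hairpin against p19ARF) and carried pBabe-HRasG12V, an oncogenic Ras. The USP28 vector group was +/+ for Usp28 and carried pWZL-USP28, and the -/- group carried the control vector pWZL-GFP. The groups therefore differed in genotype and in vector at the same time, and those effects cannot be told apart in the ratio between them. Levels of the Ras +/+ and Ras +/- groups, each with 2 libraries and pWZL-GFP, are given beside the results as a reference. The labels do not say how many embryos or independently infected cultures stand behind a group, so p-values may measure technical spread only. Of 33440 gene IDs, 15816 were tested, those whose level averaged 1 or more RPM (reads in every 1e6) over the USP28 vector and -/- groups.

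Usp28 is a deubiquitinase that removes ubiquitin chains from its targets. Fbw7, encoded by Fbxw7, is the substrate receptor of an SCF ubiquitin ligase that marks phosphorylated growth regulators such as Myc, Jun, cyclin E and Notch for degradation, and Usp28 binds Fbw7 and can oppose this marking. Both act on proteins, so a transcript level shows neither the abundance of a substrate nor its turnover. Fibroblasts are the matrix-building cells of connective tissue, and they answer viral nucleic acids and interferon with a shared antiviral gene program.

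The deposited values are comparisons of whole groups with Ras +/+, so levels are given per group, and no value or spread per library can be given. Depth in genes, summed over a group's 2 libraries, in units of 1e6 reads, was 13.07 with the USP28 vector and 13.14 in -/-, and 1 read was worth 0.0745 and 0.0717 RPM. Sex-linked genes differed between the groups. Xist, the X-inactivation RNA, measured 323 RPM with the USP28 vector, 0.215 RPM (3 reads) in -/-, 335.8 RPM in +/+ and 25.5 RPM in +/-. Its ratio was 10.55 on the log2 scale, with a 95% counting interval of 9.0 to 12.83. The Y-linked genes Eif2s3y, Kdm5d, Uty and Ddx3y were lower with the USP28 vector, Ddx3y at 13.3 against 57.5 RPM. With X and Y genes left out, 2937 genes were called (1119 higher, 1818 lower), and 2929 of the 3058 calls given below kept their call and direction. At autosomal genes, sex and group cannot be told apart. Of 13 fibroblast markers tested, 1 was higher and 7 were lower with the USP28 vector, but collagen I, fibronectin and vimentin transcripts stayed abundant in both groups, with Vim at 2290 and 3500 RPM. Ptprc, the leukocyte marker, had 0 reads in both groups, and the epithelial marker Cdh1 had 8 and 10 reads. Of other cell types' markers, 6 of 11 cartilage genes tested were lower and 1 higher, among them Comp (0.149 against 2.87 RPM) and Sox9 (3.35 against 9.61 RPM) on the lower side. Only 2 of 11 adipocyte markers were tested, and 6 of the 11 had 0 reads in both groups. Both were lower, Fabp4 at 0.596 against 10.7 RPM and Plin4 at 2.38 against 18.2 RPM. Cd74 was the 1 leukocyte gene of 5 tested that was called, and it was lower (0.67 against 4.52 RPM). Of 13 muscle markers only 2 were tested, the actin genes Acta1 and Actc1, and both were higher, while 4 of the 13 had 0 reads in both groups. Of 16 neural markers 7 were tested, 2 higher and 1 lower, and of 11 endothelial markers 3 were tested, 1 higher. With a doubled dispersion the higher calls among muscle, neural and endothelial markers were 1, 1 and 0. Over all genes tested 7.43% were higher and 11.9% lower. The part of these cell types in the matrix results was not tested.

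Usp28 itself (chr9:48985375-49042517, plus strand, GRCm38) was the check on the labels. It measured 26.4 RPM with the USP28 vector, 14.8 RPM in -/-, 26.5 RPM in +/+ and 18.6 RPM in +/-. Cells with the vector had the level of +/+ cells without it, and the transcript was not absent from -/-. The ratio of the USP28 vector over -/- was 0.83 on the log2 scale (implied SE 0.30, 95% interval 0.24 to 1.42, adjusted p = 0.0335 by the approximate Wald test with Benjamini-Hochberg adjustment that is used throughout), and the call was lost with a doubled dispersion, at an adjusted p = 0.225. The vector's name spells the gene as the human one, its species is not stated, and a human insert's reads may go uncounted at mouse Usp28. The RNA therefore checks neither the overexpression nor the loss, and the directions below rest on the labels. The SE is implied by the read counts and a dispersion common to all genes, and is not a spread measured for the gene.

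Across the transcriptome 3058 of 15816 genes tested were called (19.3%), 1175 higher with the USP28 vector (7.43%) and 1883 lower (11.9%). The median log2 ratio was 0.02 over all genes tested. Of the called genes 2274 differed by more than 1 on the log2 scale, and 613 by more than 3, of which 173 were higher and 440 lower. The smallest log2 ratio called was 0.72 in size. Just above the level filter, 32 of 177 genes with a mean level of 1 to 1.1 RPM were called, and 221 genes at 0.9 to 1 RPM were not tested. For reference, the authors' deposited table gives an adjusted p under 0.05 to 128 of these 15816 genes for the USP28 vector against +/+, and to 3665 for -/- against +/+. Those comparisons and the one described here share libraries. Among the called genes named below, Acta2, Ccnb1, Fos, H2-K1, Hsp90b1, Jun, Junb, Mtor, mt-Cytb, Nolc1, Nop56, Nras, Pdgfa, Prim1, Psat1, Srf and Thbs1 were not called with a doubled dispersion.

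**Figure D1:**
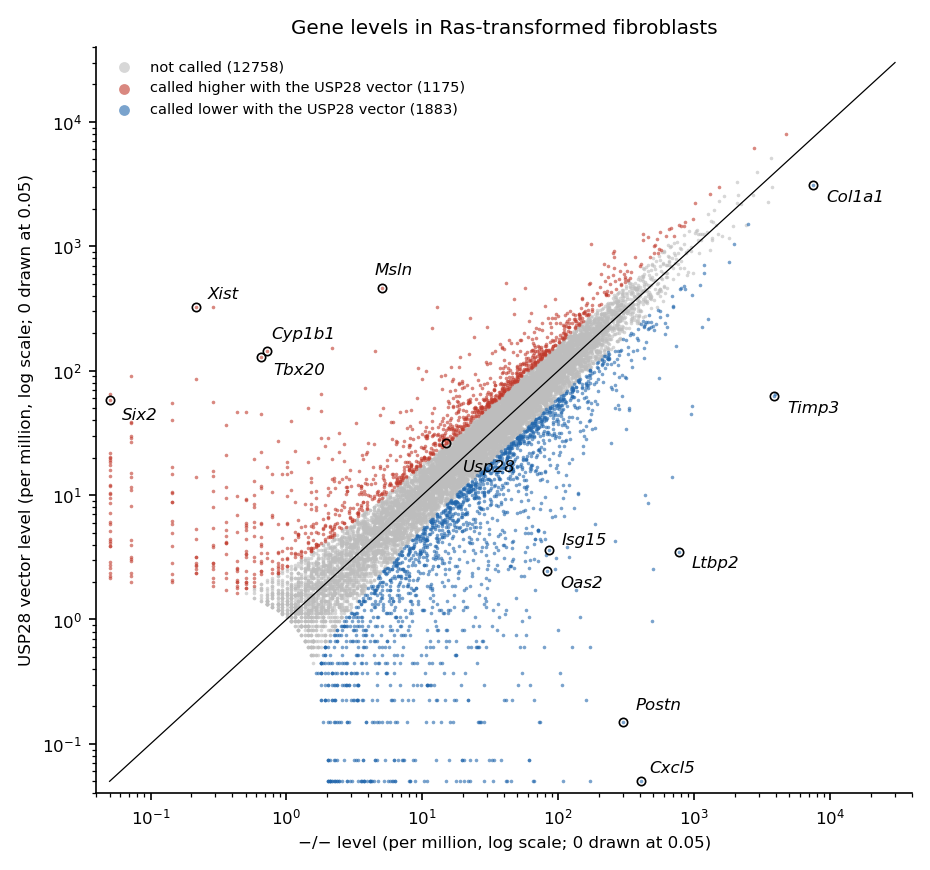
Level of each of 15816 genes tested in the -/- group (horizontal, RPM, log scale) against the USP28 vector group (vertical, RPM, log scale), with a level of 0 drawn at 0.05 RPM. Genes called higher with the vector (1175) are red, genes called lower (1883) blue and genes not called grey, the line marks equal levels, and the genes far below it include Cxcl5, Postn, Ltbp2 and Timp3.

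Among the Fbw7 ligase and Usp28 partner genes, only Usp28 was called of 12 tested (8.33%, against 19.3% of all genes tested). Fbxw7 measured 30.5 RPM with the USP28 vector and 27.0 RPM in -/-, a log2 ratio of 0.18 (implied SE 0.29, adjusted p = 0.737). The ligase's scaffold Cul1 had a log2 ratio of 0.28 (adjusted p = 0.54), its adaptor Skp1a -0.11 (adjusted p = 0.848), and Usp25, the closest relative of Usp28, 0.39 (adjusted p = 0.371). None of these passed the test at the dispersion used. Usp10, another deubiquitinase, was at 159 against 97.8 RPM (log2 ratio 0.70, adjusted p = 0.0608), and it was called with the mean of both dispersions (adjusted p = 0.00285).

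Of 27 transcripts of Fbw7 substrates tested, 6 were higher, 3 lower and 18 not called, with a median log2 ratio of 0.15. The 3 of 27 lower is close to the 11.9% over all genes tested, and 7.43% of all were higher. Jun, the AP-1 subunit, measured 273 RPM with the USP28 vector, 145 RPM in -/-, 256 RPM in +/+ and 68.4 RPM in +/-. Its log2 ratio was 0.92 (implied SE 0.28, adjusted p = 0.00734), and it was not called with a doubled dispersion (adjusted p = 0.127). Klf5, a growth-promoting zinc-finger factor, rose from 12.2 RPM in -/- to 50.2 RPM (log2 ratio 2.04, adjusted p = 4.02e-10), with 49.5 RPM in +/+. Gata3 rose from 14.4 to 36.3 RPM and Klf2 from 14.2 to 33.8 RPM. Mycl was at 2 reads in -/- and 4.92 RPM with the vector, a log2 ratio of 5.10 with a 95% counting interval of 3.19 to 8.18. Notch3, a receptor of mural cells, fell from 14.8 RPM in -/- to 0.596 RPM (log2 ratio -4.55, implied SE 0.57, adjusted p = 1.17e-13), and Cebpd and Junb were lower by -1.43 and -0.79.

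Transcripts of several well-known substrates were not called. Myc measured 170 RPM with the USP28 vector and 149 RPM in -/- (log2 ratio 0.19, adjusted p = 0.71). Ccne1, which encodes cyclin E, had a log2 ratio of 0.36 (adjusted p = 0.435), and Notch1 one of -0.64 (adjusted p = 0.112). These intervals are wide, and a p above the threshold does not show equal levels. Mtor, the growth kinase, was higher with the vector at 125 RPM than in -/- (65.9 RPM), +/+ (59.9 RPM) and +/- (48.6 RPM), a log2 ratio over -/- of 0.93 (implied SE 0.28, adjusted p = 0.00732, and 0.123 with a doubled dispersion). Angptl7 lies inside the span of Mtor on the other strand, and since no strand-specific counting is stated, reads of the pair cannot be told apart.

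**Figure D2:**
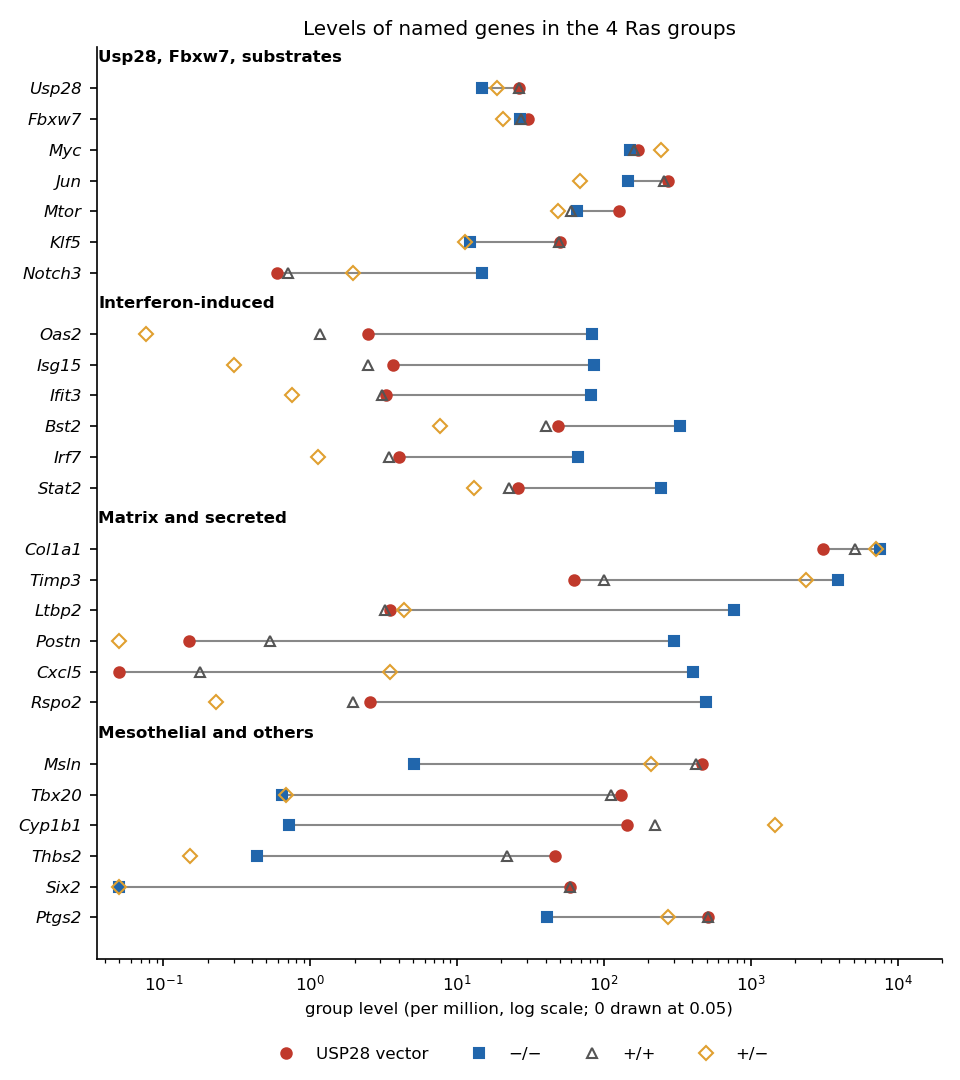
Level of 25 named genes (vertical, grouped by role) in the USP28 vector, -/-, +/+ and +/- Ras groups (horizontal, RPM, log scale, with 0 drawn at 0.05). Each symbol is a group of 2 libraries and has no error bar because no value per library was used, the grey line joins the compared groups, and for the interferon-related genes the lowest -/- square is Irf7 at 66.7 RPM while the highest vector circle is Bst2 at 48.7 RPM.

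Interferon-induced effectors were lower with the USP28 vector almost throughout, whereas 11.9% of all genes tested were lower. Of 41 effector genes in the table, 37 were tested, 35 were lower with the USP28 vector, 0 were higher and 2 were not called (Ifit2 and Trim25). Their median log2 ratio was -3.32, against 0.02 over all genes tested, and their summed level was 590 RPM with the vector, 2884 RPM in -/- and 527 RPM in +/+. Fewer responding cells and less RNA per cell cannot be told apart in such bulk samples.

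Isg15, a ubiquitin-like protein that is conjugated to targets in infected cells, measured 3.65 RPM with the USP28 vector, 85.1 RPM in -/-, 2.47 RPM in +/+ and 0.303 RPM in +/-. Its log2 ratio was -4.53 (implied SE 0.34, adjusted p = 1.06e-36). Oas2, which makes the RNA-decay signal 2-5A, measured 2.46 RPM with the vector, 83.1 RPM in -/-, 1.16 RPM in +/+ and 0.0756 RPM in +/- (log2 ratio -5.06, implied SE 0.37, adjusted p = 3.67e-39). For each of them the -/- group stood above the other 3 Ras groups. Ifit3, a binder of viral RNA, was at 3.28 against 80.9 RPM, and the dynamin-like GTPase Mx1 was at 3 reads against 21.7 RPM, a log2 ratio of -6.60 with a 95% counting interval of -8.88 to -5.04. Iigp1, a GTPase that attacks vacuoles of intracellular parasites, was at 0.298 against 50.5 RPM (log2 ratio -7.24, implied SE 0.74). Other effectors were lower by smaller ratios: Bst2, the tetherin that holds virions at the cell surface, by -2.76 (48.7 against 331 RPM) and Irgm1 by -1.65 (55.1 against 173 RPM). Reads of near-identical relatives within the Oas, Ifit and Gbp families may have been split or lost by the authors' alignment, and single members there are uncertain.

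The factors that turn interferon signals on were lower in part. Of 31 signalling genes tested, 12 were lower, 0 higher and 19 not called, with a median log2 ratio of -0.64. The share called was 38.7%, against 19.3% of all genes tested. Irf7, which amplifies interferon production, measured 4.02 RPM with the USP28 vector and 66.7 RPM in -/- (log2 ratio -4.04, implied SE 0.34, adjusted p = 3.7e-30). Stat2 measured 26.0 against 244 RPM (log2 ratio -3.23, adjusted p = 2.42e-27). The cytosolic RNA sensors Ifih1 and Ddx58 were lower by -3.50 and -2.16, and the receptor Tlr2 by -3.10. Irf7 and Stat2 are themselves induced by interferon. Jak1, a kinase bound to the receptors, had a log2 ratio of -0.35 (adjusted p = 0.43) at 168 against 214 RPM, and Ifnb1, the interferon-beta gene, had 1 read in each group and was not tested.

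Antigen presentation by MHC class I, an interferon-responsive pathway that displays peptides to T cells, was lower in 12 of 19 genes tested and higher in 1, with a median log2 ratio of -1.01. The share called was 68.4%, against 19.3% of all genes tested. B2m, the invariant light chain, measured 224 against 484 RPM (log2 ratio -1.11, adjusted p = 0.000656). The peptide transporter Tap1 fell to 4 reads (0.298 against 6.81 RPM, log2 ratio -4.35), its regulator Nlrc5 was at 0.447 against 8.39 RPM, and Tapbp, which loads peptides, was at 107 against 351 RPM (log2 ratio -1.72). The chaperones Calr, Canx and Pdia3, which fold many other proteins too, had log2 ratios of 0.08, -0.07 and -0.07 and were not called. H2-D1 was lower (-1.63) and H2-K1 was higher (0.96), but the class I heavy chain genes are near-identical copies whose reads can be exchanged, so their separate values are uncertain.

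Promoters are shown for effectors that were called lower and that hold an interferon motif before the start. Below are the 150 bases before the start of 4 of them, from the RefSeq promoter table on GRCm38.p6, written 5′ to 3′ on the strand of the gene, with capitals marking each match to GAAA, any 2 bases, GAAA, the core of the interferon-stimulated response element, on either strand (on the other strand it reads TTTC, any 2 bases, TTTC). Isg15 and Bst2 were named by rule, and Oas1a (3.94 against 39.8 RPM) and Rsad2 (0.67 against 4.44 RPM) were chosen after their values were seen, as windows that show the motif near the start and on the other strand. All 4 were taken from effectors with a match. The motif was in 13 of 26 promoters of effectors called lower (50%), so the 4 do not stand for the list.
Isg15 (chr4:156200819-156200968, minus strand): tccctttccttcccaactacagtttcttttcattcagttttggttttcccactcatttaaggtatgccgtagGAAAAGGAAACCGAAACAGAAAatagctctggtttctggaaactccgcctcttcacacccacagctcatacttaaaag
Bst2 (chr8:71537473-71537622, minus strand): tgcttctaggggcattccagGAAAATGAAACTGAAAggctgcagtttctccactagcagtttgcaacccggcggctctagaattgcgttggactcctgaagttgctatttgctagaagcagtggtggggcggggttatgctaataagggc
Oas1a (chr5:120907526-120907675, minus strand): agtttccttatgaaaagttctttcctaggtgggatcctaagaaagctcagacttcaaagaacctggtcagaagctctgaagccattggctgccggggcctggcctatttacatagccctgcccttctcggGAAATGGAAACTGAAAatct
Rsad2 (chr12:26456453-26456602, minus strand): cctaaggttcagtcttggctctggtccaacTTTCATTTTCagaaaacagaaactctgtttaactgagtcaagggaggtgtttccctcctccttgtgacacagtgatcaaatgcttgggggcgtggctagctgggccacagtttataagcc
The stretch holds 3 matches in Isg15, 2 in Bst2, 2 in Oas1a and 1 in Rsad2, and overlapping matches were counted separately. Within 250 bases before the start, the motif was in 15 of 32 effector promoters that matched the RefSeq table by symbol (46.9%), against 936 of 27025 promoters of the whole table (3.46%). Among promoters of genes tested it was in 322 of 10062 (3.2%). For genes called lower it was in 80 of 1322 (6.05%), and for genes called higher in 18 of 733 (2.46%). The AP-1 motif TGANTCA was in 2113 of all 27025 promoters (7.82%) and in 554 of 10062 promoters of genes tested (5.51%). For genes called lower it was in 111 of 1322 (8.4%), and for genes called higher in 51 of 733 (6.96%). By list it was in 5 of 16 promoters of matrix proteases and inhibitors (31.2%), 8 of 32 of interferon effectors (25%), 7 of 30 of chemokines and cytokines (23.3%) and 1 of 23 of collagens (4.35%). A match describes letters and is not a measured binding site.

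**Figure D3:**
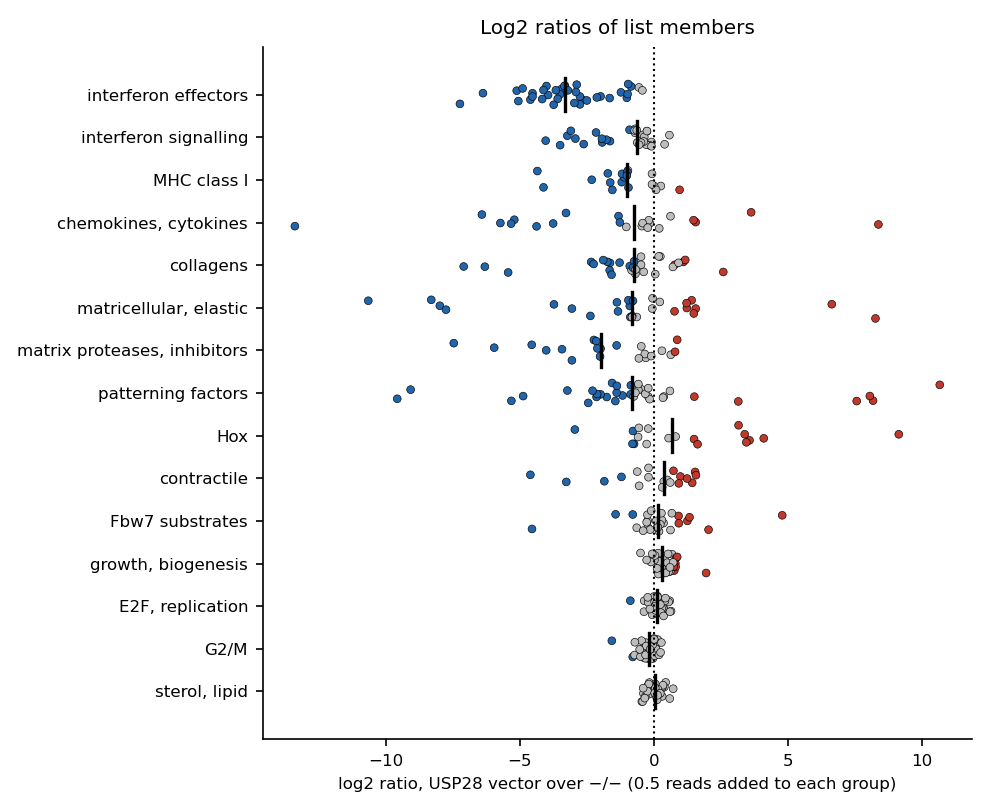
Log2 ratio of the USP28 vector over -/- (horizontal, with 0.5 reads added to each group) for each tested member of 15 gene lists (vertical). Red points were called higher, blue points lower and grey points not called, short black bars are list medians, the dotted line is the median of 0.02 over all genes tested, and the vertical scatter of points within a list has no meaning.

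Extracellular matrix transcripts changed, with more falls than rises. Over all genes tested 11.9% were lower and 7.43% higher. Of 29 collagen and collagen-processing genes tested, 14 were lower and 4 higher (median log2 ratio -0.74), and their summed level was 10786 RPM with the USP28 vector, 18267 RPM in -/- and 14172 RPM in +/+. Col1a1, the main fibrillar collagen chain, measured 3099 RPM with the vector, 7526 RPM in -/-, 5150 RPM in +/+ and 7146 RPM in +/- (log2 ratio -1.28, implied SE 0.27, adjusted p = 4.49e-05). Its partner chain Col1a2 did not pass the test (1495 against 2419 RPM, log2 ratio -0.69, adjusted p = 0.0569). Col3a1 was at 225 against 1145 RPM (log2 ratio -2.34, adjusted p = 1.14e-15). Col6a3, a microfibril chain, measured 10.1 RPM with the vector, 438 RPM in -/-, 42.0 RPM in +/+ and 0.831 RPM in +/- (log2 ratio -5.44, implied SE 0.30, adjusted p = 1.44e-69). Col5a2 was at 1496 against 1446 RPM and was not called.

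Matricellular and elastic-fibre genes changed in both directions, with 15 lower and 8 higher of 28 tested (82.1% called, against 19.3% of all genes tested). Postn, which encodes the matricellular protein periostin, was at 2 reads with the USP28 vector and 300.4 RPM in -/-, a log2 ratio of -10.98 with a 95% counting interval of -14.02 to -9.12, and it was at 0.529 RPM in +/+ and 0 in +/-. Ltbp2, a latent TGF-beta binding protein of microfibrils, measured 3.50 RPM with the vector, 768 RPM in -/-, 3.22 RPM in +/+ and 4.31 RPM in +/- (log2 ratio -7.76, implied SE 0.35, adjusted p = 7.57e-108). Fbn2, fibrillin-2, was at 0.298 against 106 RPM. In these genes the -/- group was the highest of the 4 Ras groups. In the other direction Thbs2, an anti-angiogenic thrombospondin, was at 46.5 RPM with the vector against 0.43 RPM in -/- (log2 ratio 6.64, implied SE 0.63, adjusted p = 9.86e-24), and Efemp1, fibulin-3, was at 55.3 RPM against 2 reads. Thbs1 measured 8035 against 4707 RPM (log2 ratio 0.77, adjusted p = 0.029), and Ccn1, a target of the YAP pathway, 1118 against 420 RPM (log2 ratio 1.41). Fn1, fibronectin, was at 2594 against 2696 RPM and was not called.

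Proteoglycans and proteases followed the lower side. Of 9 small leucine-rich proteoglycans tested, 5 were lower and 0 higher, beside 11.9% lower and 7.43% higher over all genes tested. Lum had 0 reads with the USP28 vector and 22.6 RPM in -/-, at least 101-fold lower against a floor of 3 reads per group. Dcn, decorin, was at 0.82 against 99.9 RPM (log2 ratio -6.87, implied SE 0.51), but at 118 RPM in +/- and 0.354 RPM in +/+. Of 21 matrix proteases and inhibitors tested, 12 were lower and 2 higher (median log2 ratio -1.99). Timp3, a matrix-bound inhibitor of metalloproteases, measured 62.5 RPM with the vector, 3891 RPM in -/-, 100.3 RPM in +/+ and 2386 RPM in +/- (log2 ratio -5.96, implied SE 0.28, adjusted p = 1.27e-97). Syn3 spans Timp3 on the other strand and gave nearly the same values (65.0 against 3899 RPM), and without stated strand the pair cannot be told apart. The gelatinase Mmp2 was at 157 against 739 RPM (log2 ratio -2.24).

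Adhesion to basement membrane split evenly, with 6 of 23 integrin, laminin and related genes higher and 6 lower (median log2 ratio -0.02). The share called was 52.2%, against 19.3% of all genes tested. Itga7, a laminin receptor, rose from 11.7 to 219 RPM (log2 ratio 4.22, implied SE 0.30, adjusted p = 7.44e-43). Lama4, a laminin chain of vessel walls, was at 1.04 against 24.4 RPM (log2 ratio -4.50). Cdh2, N-cadherin, rose from 56.8 to 462 RPM (log2 ratio 3.02, adjusted p = 4.23e-25).

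**Figure D4:**
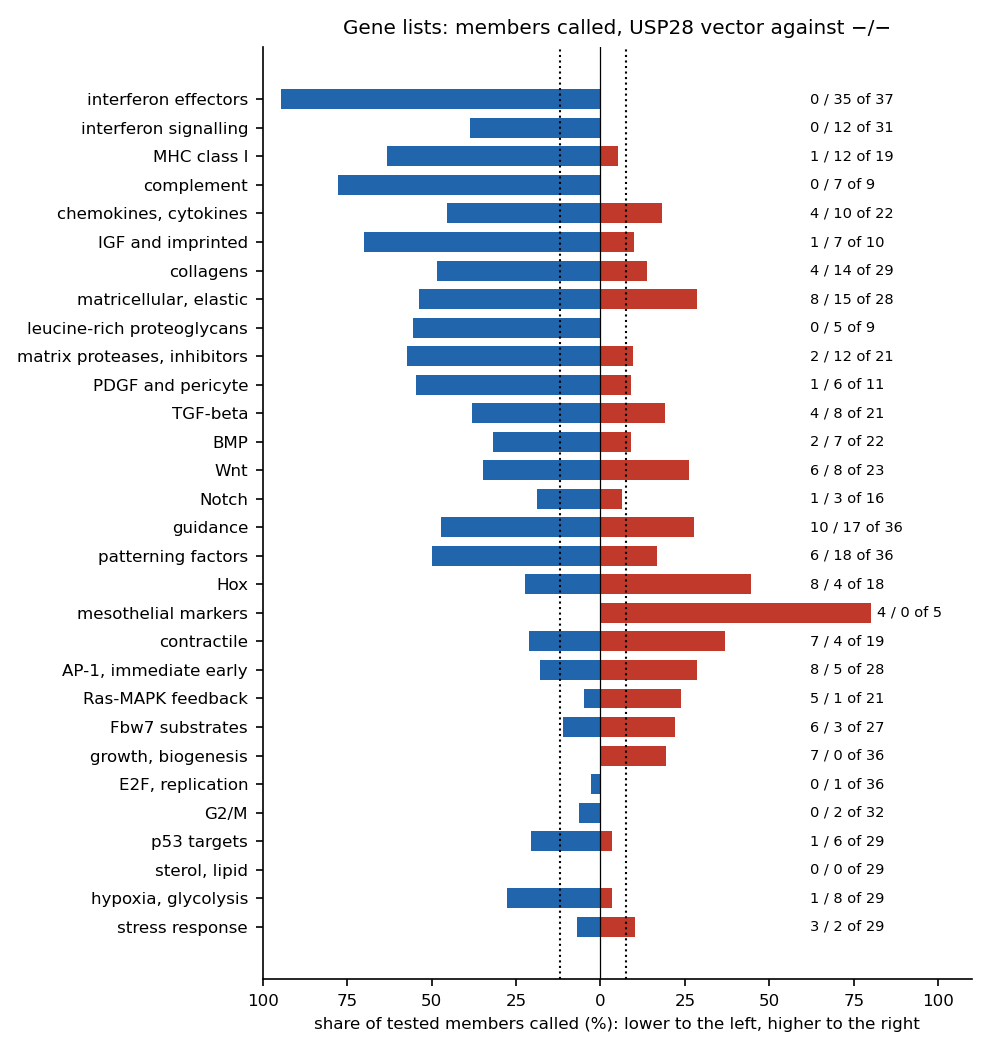
Share of tested members called lower (blue, to the left) and higher (red, to the right) with the USP28 vector against -/-, for 30 gene lists, with the counts higher / lower of tested at the right. Dotted lines mark the shares over all genes tested, 11.9% lower and 7.43% higher; interferon effectors reach 35 of 37 lower, and no sterol gene of 29 was called.

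Secreted signals differed by some of the largest ratios. Bmp2, a bone morphogenetic protein, had 0 reads with the USP28 vector, 171 RPM in -/-, 0 in +/+ and 0.0756 RPM in +/-, at least 763-fold lower against 3 reads per group. The BMP list had 7 lower and 2 higher genes of 22 tested, with Bmp4 at 19.7 against 127 RPM (log2 ratio -2.69). Over all genes tested 11.9% were lower and 7.43% higher, and the 2 of 22 BMP genes higher is close to the latter share. In the Wnt list 8 were lower and 6 higher of 23 tested. Sfrp2, a secreted Wnt modulator, had 0 reads with the vector and 109 RPM in -/-, at least 486-fold lower, and Rspo2, a potentiator of Wnt receptors, was at 2.53 against 494 RPM (log2 ratio -7.59, implied SE 0.37, adjusted p = 1.3e-90). Wnt10b rose from 1.43 to 50.3 RPM (log2 ratio 5.10, implied SE 0.42). In the TGF-beta list 8 were lower and 4 higher of 21 tested. Eng, a co-receptor, was at 3.80 against 116 RPM (log2 ratio -4.92), while Inhba, an activin subunit, rose from 37.1 to 163 RPM (2.14).

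Chemokines and complement were lower on balance. Of 22 chemokine, cytokine and inflammatory genes tested, 10 were lower and 4 higher (63.6% called, against 19.3% of all genes tested). Cxcl5, a neutrophil attractant, had 0 reads with the USP28 vector and 403 RPM in -/-, at least 1803-fold lower against 3 reads per group, with 0.176 RPM in +/+ and 3.47 RPM in +/-. Cxcl12, which guides stem and immune cells, was at 8.57 against 456 RPM (log2 ratio -5.73, implied SE 0.31, adjusted p = 5.03e-75), and Ccl2 at 10.3 against 140 RPM (-3.76). Cxcl1 went the other way, with 11.9 RPM against 0 reads in -/- (at least 55.5-fold higher). Ptgs2, the inducible prostaglandin synthase COX-2, rose from 41.1 to 509.5 RPM (log2 ratio 3.63, implied SE 0.28, adjusted p = 1.65e-35). In the complement list 7 of 9 tested were lower and 0 higher (77.8% called). C3, the central component, was at 50.2 against 331 RPM (log2 ratio -2.72, adjusted p = 2.77e-20).

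Of 23 growth-factor and imprinted genes only 10 were tested, and 6 of the 23 had 0 reads in both groups. Among the 10, 7 were lower and 1 higher (median log2 ratio -3.42, 80% called, against 19.3% of all genes tested). A gene with 0 reads with the vector, such as Peg3 below, passed the level filter only through -/-. The counts and the median therefore describe only members that passed. Igfbp4, which sequesters insulin-like growth factors, measured 13.9 RPM with the USP28 vector, 685 RPM in -/-, 11.7 RPM in +/+ and 2630 RPM in +/- (log2 ratio -5.62, implied SE 0.29, adjusted p = 4.16e-78). The imprinted genes Peg3 (0 reads against 19.1 RPM, at least 85.3-fold lower) and Grb10 (87.4 against 554 RPM, log2 ratio -2.66) were lower too. Among platelet-derived growth factor and pericyte genes, 6 of 11 were lower and 1 higher. Cspg4, the pericyte proteoglycan NG2, was at 3 reads against 160 RPM (log2 ratio -9.48, 95% counting interval -11.76 to -7.93), the receptors Pdgfra and Pdgfrb were at 21.97 against 90.9 RPM and 44.9 against 174 RPM, and Pdgfa rose from 26.2 to 54.8 RPM.

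Genes that mark positional and cell identity differed. Msln, which encodes the mesothelial surface protein mesothelin, measured 466 RPM with the USP28 vector, 5.09 RPM in -/-, 425 RPM in +/+ and 209 RPM in +/- (log2 ratio 6.51, implied SE 0.32, adjusted p = 1.47e-86). Of 13 mesothelial markers only 5 were tested, and 4 were higher (Msln, Krt19, Krt7 and Cdh3), beside 7.43% of all genes tested. Krt19 was at 85.4 RPM against 3 reads, a log2 ratio of 8.63 with a 95% counting interval of 7.08 to 10.91. The defining markers Wt1 and Upk3b had 5 and 7 reads with the vector and 7 and 10 in -/-, and Lrrn4 had 0 in both, so these were at or near 0 in both groups. Cyp1b1, a P450 enzyme, measured 143 RPM with the vector, 0.717 RPM in -/-, 221 RPM in +/+ and 1464 RPM in +/- (log2 ratio 7.57, implied SE 0.52).

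Patterning factors, which set position and tissue type in the embryo, were called in 24 of 36 tested (66.7%), 18 lower and 6 higher. All genes tested were called in 19.3%, with 11.9% lower and 7.43% higher. Six2 was at 58.5 RPM with the USP28 vector and 58.6 RPM in +/+, and had 0 reads in -/- and in +/- (at least 272-fold higher over -/-). Tbx20, a T-box factor of heart and other mesoderm, was at 130 RPM with the vector, 0.645 RPM in -/-, 112 RPM in +/+ and 0.682 RPM in +/- (log2 ratio 7.57, implied SE 0.54, adjusted p = 2.51e-41). Emx2 was at 64.9 RPM against 0 reads in -/- (at least 302-fold higher). Tbx4 and Tbx3, limb factors, had 0 reads with the vector and 28.5 and 20.1 RPM in -/-. Of 38 Hox genes 18 were tested, 8 higher and 4 lower (66.7% called). Hoxa7 was at 20.1 RPM against 0 reads (at least 93.6-fold higher) and Hoxa3 at 22.1 against 2.44 RPM. Hoxd12 and Hoxd9 were higher too, with log2 ratios of 4.10 (adjusted p = 5.19e-10) and 1.63. The distal limb gene Hoxa13 was at 3.80 against 29.6 RPM (log2 ratio -2.95), and Hoxd13 was not called (167 against 201 RPM). The 4 lower Hox calls became 1 with a doubled dispersion and 2 with no level filter, and the 8 higher became 3 among genes averaging 5 RPM or more. Axon guidance genes were called in 27 of 36 (75%), with 17 lower and 10 higher. Slit3, a repellent ligand, rose from 1.79 to 47.8 RPM (log2 ratio 4.71), and Sema3e, a semaphorin, was at 2.98 against 70.7 RPM (-4.55).

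Of 19 contractile genes of the actin cytoskeleton tested, 7 were higher and 4 lower, and with a doubled dispersion 4 were higher and 4 lower. The share called at the main setting was 57.9%, against 19.3% of all genes tested. Acta2, smooth muscle actin, measured 3016 RPM with the USP28 vector, 1515 RPM in -/-, 2769 RPM in +/+ and 399 RPM in +/- (log2 ratio 0.99, implied SE 0.27, adjusted p = 0.00271, and 0.0804 with a doubled dispersion). Tagln rose from 422 to 1256 RPM (log2 ratio 1.57) and Tpm2 from 222 to 524 RPM (1.24), whereas Myl9, a myosin light chain, was at 87.3 against 315 RPM (-1.85) and Mylk, its kinase, at 2.61 against 25.5 RPM (-3.27). Actb, cytoplasmic actin, which the naming rule picked by level, was at 6168 against 2759 RPM (1.16, adjusted p = 0.000285), and Srf, the factor that drives many actin genes, at 246 against 148 RPM (0.73, adjusted p = 0.0429, and 0.285 with a doubled dispersion).

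Of 28 AP-1 and immediate-early genes tested, 8 were higher and 5 lower (46.4% called, against 19.3% of all genes tested). Klf4 rose from 21.3 to 76.7 RPM (log2 ratio 1.85, adjusted p = 5.39e-09) and Fosl2, an AP-1 subunit, from 162 to 352 RPM (1.12), while Egr1 fell from 77.9 to 23.4 RPM (-1.73, adjusted p = 5.14e-08) and Fos was at 0.82 against 2.58 RPM (-1.61). Feedback and downstream genes of the Ras-MAPK pathway were higher in 5 of 21 tested and lower in 1 (28.6% called). Dusp5, a phosphatase for ERK, rose from 8.32 to 48.2 RPM (log2 ratio 2.53, implied SE 0.31, adjusted p = 1.95e-14). Dusp1 rose from 25.5 to 84.9 RPM (1.73) and the chromatin protein gene Hmga1 from 259 to 912 RPM (1.82). Ccnd1, cyclin D1, was at 732 against 728 RPM and was not called. Among 27 Ras genes and regulators 25.9% were called, against 19.3% of all genes tested: 4 were higher and 3 lower, and 3 and 1 with a doubled dispersion. Nras was at 157 against 80.0 RPM (0.98, adjusted p = 0.00408, and 0.0939 with a doubled dispersion). Hras had a log2 ratio of 0.18 (114 against 100.4 RPM, adjusted p = 0.716), with no statement of whether vector reads count toward it.

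Cell-cycle lists held few called genes: 2.78% of replication and E2F, 6.25% of G2/M and 12.5% of CDK, cyclin and kinase genes. The share over all genes tested was 19.3% (7.43% higher, 11.9% lower). Of 36 replication and E2F genes tested, 1 was called, Prim1 at 57.9 against 107 RPM (log2 ratio -0.88, adjusted p = 0.0125), and the list median was 0.12. Of 32 G2/M genes, 2 were called: Ccnb2 was at 26.2 against 77.9 RPM (-1.57) and Ccnb1 at 50.3 against 86.8 RPM (-0.79, adjusted p = 0.0312). The proliferation marker Mki67 had a log2 ratio of -0.14 (adjusted p = 0.781). Among CDK inhibitors, cyclins and kinases, 2 of 16 were called: Cdkn1b, the inhibitor p27, was at 41.1 against 108 RPM (-1.40, adjusted p = 1.36e-05), and Cdk6 rose from 15.4 to 56.7 RPM (1.88, adjusted p = 5.6e-09). With the mean of both dispersions, replication and E2F genes had 4 higher and 1 lower, and G2/M genes 0 higher and 5 lower. CDK inhibitors, cyclins and kinases then had 2 higher and 3 lower. None of 29 sterol and lipid genes tested was called by the Wald test, and 2 passed with the mean of both dispersions; this does not show equal levels.

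Growth and ribosome-biogenesis genes, many of them known Myc targets, had 7 higher and 0 lower of 36 tested, with a median log2 ratio of 0.32. The share called, 19.4%, was close to the 19.3% of all genes tested, of which 7.43% were higher and 11.9% lower. Nop56, a core protein of small nucleolar ribonucleoproteins, rose from 165 to 278 RPM (0.76, adjusted p = 0.0356) and Nolc1 from 163 to 285 RPM (0.80, adjusted p = 0.0228). These calls lay near the threshold, and 1 of the 7 was left with a doubled dispersion and 2 after centring each chromosome on its median. Of 29 p53 targets 6 were lower and 1 higher (24.1% called, against 19.3% of all genes tested). The lower calls included Btg2 and Fas, each with a log2 ratio of -1.76. Pmaip1, the death effector Noxa, rose from 4.88 to 43.9 RPM (log2 ratio 3.16, implied SE 0.33, adjusted p = 9.46e-20), with 57.2 RPM in +/+ and 1.66 RPM in +/-, and Cdkn1a, the inhibitor p21, was not called (154 against 177 RPM). Of 29 hypoxia and glycolysis genes 8 were lower and 1 higher (31% called), with Car12, a carbonic anhydrase, at 0 reads against 64.7 RPM (at least 289-fold lower). Of 29 stress-response genes 17.2% were called, no more than the 19.3% of all genes tested: 3 were higher and 2 lower, and 0 and 1 with a doubled dispersion. Psat1, of serine synthesis, was at 598 against 302 RPM (0.99, adjusted p = 0.00307, and 0.0845 with a doubled dispersion) and the chaperone Hsp90b1 at 1048 against 1972 RPM (-0.91, adjusted p = 0.00703, and 0.127). In a list of genes tied to transforming capacity 5 of 20 were higher and 4 lower (45% called), with the adhesion receptor Cd44 at 815 against 255 RPM (1.67). The 5 higher became 3 with a doubled dispersion, and the 4 lower became 2 among genes averaging 5 RPM or more.

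Whole chromosomes were offset from each other. The median log2 ratio was -0.39 over 574 genes tested on chromosome 13 and -0.38 over 704 on chromosome 10, where 185 genes were called lower and 34 higher. It was 0.34 over 747 genes on chromosome 17, where 119 were higher and 46 lower, and 0.25 over 778 on chromosome 8. Restricted to genes averaging 10 RPM or more, the medians were -0.37, -0.37, 0.41 and 0.28 on chromosomes 13, 10, 17 and 8. Copy number was not measured. With each gene centred on the median of its own chromosome, 2712 genes were called, and 2455 of the 3058 kept their call and direction. The 13 protein genes of the mitochondrial genome, a set chosen after values were seen, were called higher in 12 and had a median of 0.95, with mt-Cytb at 2609 against 1298 RPM (log2 ratio 1.01, adjusted p = 0.00229).

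**Figure D5:**
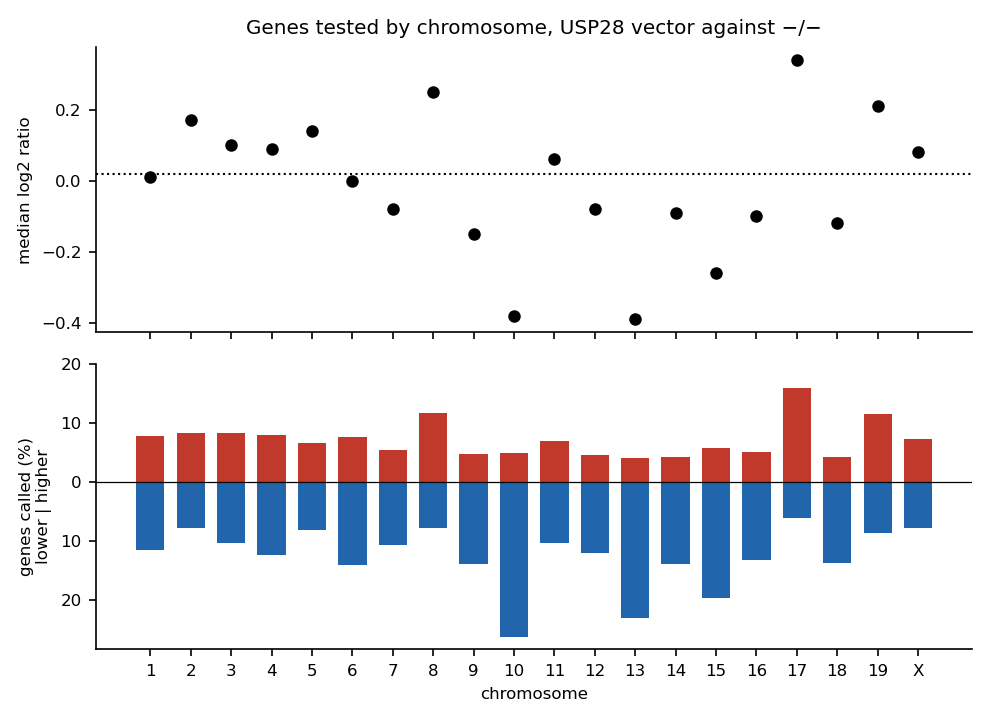
Median log2 ratio of the USP28 vector over -/- by chromosome (top, dotted line at 0.02 over all genes tested) and share of genes tested that were called higher (red, up) and lower (blue, down) in percent (bottom). Chromosomes 10 and 13 lie at -0.38 and -0.39 and chromosome 17 at 0.34; the Y chromosome, with 4 genes tested, and the mitochondrial genome are not drawn.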

How the data were processed

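RNA from Ras-transformed MEFs was poly(A)-selected, prepared with either of a pair of NEBNext kits that no label assigns to libraries, and sequenced on a Genome Analyzer IIx, per the labels' protocols. Per the submitters' processing notes, CASAVA, FastQC, Bowtie 0.12.8, edgeR and the build mm9 were used, with no roles given. Per the file headers, the deposited table gives log2 concentrations, log2 ratios of +/+ over the other group, and p-values raw and adjusted by the authors, for comparisons of whole groups with Ras +/+. Dropping 24 repeated lines left 33440 gene IDs, 97.6% of them with a symbol. Annotation came from GENCODE M21 (GRCm38), and positions are in that build.

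Levels (RPM) were rebuilt as the log2 concentration less 0.5 of the log2 ratio for the USP28 vector and -/- groups, each from its own comparison, and the sign was checked: the median log2 gap between the +/+ levels of both comparisons was then 0.0006, against 0.3797 with the ratio turned. Values under 20 reads lay within 0.1 of whole reads in 100% of cases for both groups, which gave the reads of a group. Counting intervals (exact, 95%) and floors of 3 reads per group cover counting error only.

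The dispersion common to all genes was fitted to the deposited p-values with an exact negative binomial test (coefficient of variation 14.3% for -/- and 12.5% for USP28, each against +/+). The main test is an approximate two-sided Wald test on the log2 ratio with 0.5 reads added to each group. Each group was given the sum of both dispersions, since the part of the shared +/+ libraries cannot be separated, and this bounds the error only for genes that vary like the typical gene. Genes with a mean level of 1 RPM or more were tested, p-values were adjusted over them by Benjamini-Hochberg, and an adjusted p under 0.05 is a call. Calculations were run in Python 3.11.15.

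Named genes are the 12 largest rises and falls with at least 10 RPM in the higher group and 4 reads in the lower, the 6 with most reads opposite 0 to 3 reads, the 6 called genes with the highest level per direction, members of the Fbw7 lists, and for other lists the called members with the largest ratios and those with the highest levels. Others were chosen after their values were seen: Oas1a, Rsad2, Ifit2, Trim25, Hras, Ifnb1, H2-K1, Angptl7, the markers Ptprc, Cdh1, Wt1, Upk3b and Lrrn4, and those said so in the text. The comparison, members and lists were chosen with earlier results of these data known. Counts over lists cover the members that passed the level filter. Alternatives are given at the end. Some items are not reported here.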

Additional observations from a re-analysis of the deposited data

How the results depend on the processing

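No paired analysis was possible because the deposited values are comparisons of whole groups and give no value for a single library; for the same reason leaving out each replicate was not run. Of 12 other settings, the mean of both dispersions called 4924 genes (2244 higher, 2680 lower) and a doubled dispersion 1796 (577 higher, 1219 lower), against 3058 in the main result (1175 higher, 1883 lower). Restricting the test to a mean level of at least 5 RPM called 2294 genes, 911 higher and 1383 lower. A threshold of 0.01 called 2113, of which 734 were higher and 1379 lower. The other 8 settings called 2712 to 3087 genes, and the share of calls that were higher ran from 32.1% to 45.6% over all settings, against 38.4%. For Usp28 the adjusted Wald p ran from 0.00195 to 0.225: the ratio of 0.83 was not called with a doubled dispersion (adjusted p = 0.225) or at the threshold of 0.01 (adjusted p = 0.0335). The settings were followed for 437 genes: those named by ratio or level, called members of the lists, and all tested members of the Fbw7 lists. Of these, 92 lost their call with a doubled dispersion and 37 after centring on each chromosome, where Aurka (-0.09), Rbx1 (0.10) and Srebf2 (0.04) changed sign without being called. With a doubled dispersion the calls of other lists moved too: lower calls fell from 12 to 7 of 19 MHC class I genes, from 15 to 9 of 28 matricellular genes, from 8 to 5 of 21 TGF-beta genes and from 8 to 5 of 29 hypoxia genes, and AP-1 genes from 8 higher and 5 lower to 5 and 2. No other setting reversed any of the 437 genes it tested, but most of them were included because they were called, so reversals were unlikely from the start. The exact negative binomial test, equal sums, chromosome centring and the removal of X and Y genes were chosen after seeing the data. Depth limits genes near 1 RPM, where 1 read is worth 0.0745 RPM with the USP28 vector and 0.0717 RPM in -/-.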

Other observations

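A few genes set the USP28 vector group apart from all 3 other Ras groups. Chosen after the values were seen, as genes called against -/-, with an adjusted p under 0.05 against +/+ in the authors' deposited table and at least a 2-fold difference from each other Ras group, 3 were higher and 17 lower. Angptl7, a secreted angiopoietin-like protein, measured 64.7 RPM with the vector, 1.79 RPM in -/-, 12.8 RPM in +/+ and 0.529 RPM in +/-. Its log2 ratio over -/- was 5.15 (implied SE 0.40), and that over +/+ in the authors' deposited table was 2.34 (adjusted p = 6.45e-23). Mtor, whose span holds Angptl7, had a log2 ratio over +/+ of 1.07 in the authors' deposited table (adjusted p = 1.49e-05). The others that were higher were Thbs2 and Gpr149, an orphan receptor at 15.6 RPM with the vector, 0.287 RPM in -/-, 7.04 RPM in +/+ and 0.151 RPM in +/-.

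On the lower side Sspn, sarcospan of the dystrophin complex, measured 62.6 RPM with the vector, 126 RPM in -/-, 943 RPM in +/+ and 326 RPM in +/-, so the vector group was lowest and the -/- group next. Matrix genes were among the 17. Fmod, the proteoglycan fibromodulin, was at 1.19 RPM with the vector, 13.6 RPM in -/-, 6.38 RPM in +/+ and 34.7 RPM in +/-. Col6a2 was at 42.5, 127, 100.5 and 424 RPM in the same order of groups. Adamts2, which trims procollagen, was at 4.47, 73.2, 12.3 and 27.0 RPM, and Adam19, a membrane protease, at 2.90, 15.7, 7.27 and 7.18 RPM.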
